A study of Mus musculus with 4 samples.

Results

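Exonic bins are the pieces into which a gene's exons fall when they are cut at every annotated exon boundary, and genes that share exon sequence on the same strand are joined into 1 unit before they are cut. The regions described here are the bins of such joined units in mouse skeletal muscle. They were chosen by the name of the unit, which had to hold at least 2 genes and no mitochondrially encoded one, and selected on the mean count over the 4 libraries, which had to reach 10. This gave 11318 bins in 655 units, out of 26107 bins in 949 joined units at any count and 374286 bins in 40137 units in all. The choice used the mean count over all 4 libraries, so abundance is a description here and not a result. RNA came from thigh skeletal muscle of male wild-type mice of the inbred strain C57BL/6J, with 3 libraries at 28 months of age and 1 at 18 months and with no treatment named for either group. The sequencing served to test splicing differences first found on exon arrays. The labels do not tie the 28-month libraries to separate animals. The p-values below therefore measure the spread between these samples, which may be technical, and the spread of the single 18-month sample had to be taken from the 28-month ones.

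Joined units arise in several ways. Many small nucleolar RNAs (snoRNAs, which guide chemical modification of ribosomal and other RNAs) lie in introns of genes for ribosomal proteins and translation factors and are released from the spliced intron. Many microRNAs (miRNAs, short RNAs that repress messenger RNAs through a seed at their start) are likewise cut from introns or exons of a host transcript. Readthrough genes are annotated transcripts that run from 1 gene into its neighbour, and some other neighbours overlap only at their ends. A joined unit holds every bin of all its genes, so most of its bins can still belong to 1 gene.

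All 4 libraries were deep, with 65780464 to 76163175 counts, of which joined units held 4.34 to 5.0%. Muscle markers were abundant (7 of 7 found, summed at 66734 to 124600 counts per 1000000, CPM), while keratinocyte markers, checked because the labels' extraction text describes skin, summed to 12.8 to 18.2 CPM over the 6 of 7 found, with Krt5 at 0 in every library. Replicate 2 at 28 months stood apart: its TMM scaling factor was 1.28 against 0.877 to 0.990 in the others, its muscle markers were the lowest and its fibroblast and matrix markers (4 of 5 found) the highest, at 2557 CPM against 941 to 1485 CPM. Replicate 3 had the highest red cell markers (4 of 5 found), at 3503 CPM against 128 to 350 CPM in the other 3 libraries. The 18-month library had the lowest macrophage sum (57.9 against 95.4 to 164 CPM at 28 months, 7 of 7 found) and the highest Schwann cell sum (311 against 92.8 to 176 CPM, 5 of 5 found). In bulk tissue, fewer cells of a type and less RNA per cell cannot be told apart, and the part of these differences in the results below was not tested.

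Small RNA hosts made up the largest share of the joined units. miRNA genes were present in 175 units (2914 bins), snoRNA genes in 62 (1056 bins) and other small RNA genes in 35 (653 bins). Of the remainder, 140 units joined coding genes, 111 held a readthrough gene, 34 joined a coding with a noncoding gene, 30 held a pseudogene, 2 held noncoding genes alone and 64 could not be classified from the reference tables. Units of 2 genes numbered 494, units of 3 genes 124, and units of 4 or more 37, with 10 genes in the largest. Pairs on opposite strands were nearly absent: 2 units, Gm9701+Rps23-ps1 and Gm7901+Gm5847, had their genes on opposite strands in GENCODE M21, an annotation of the genome build GRCm38. Genes are joined by strand, so the small number says nothing of antisense transcription in muscle.

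**Figure D1:**
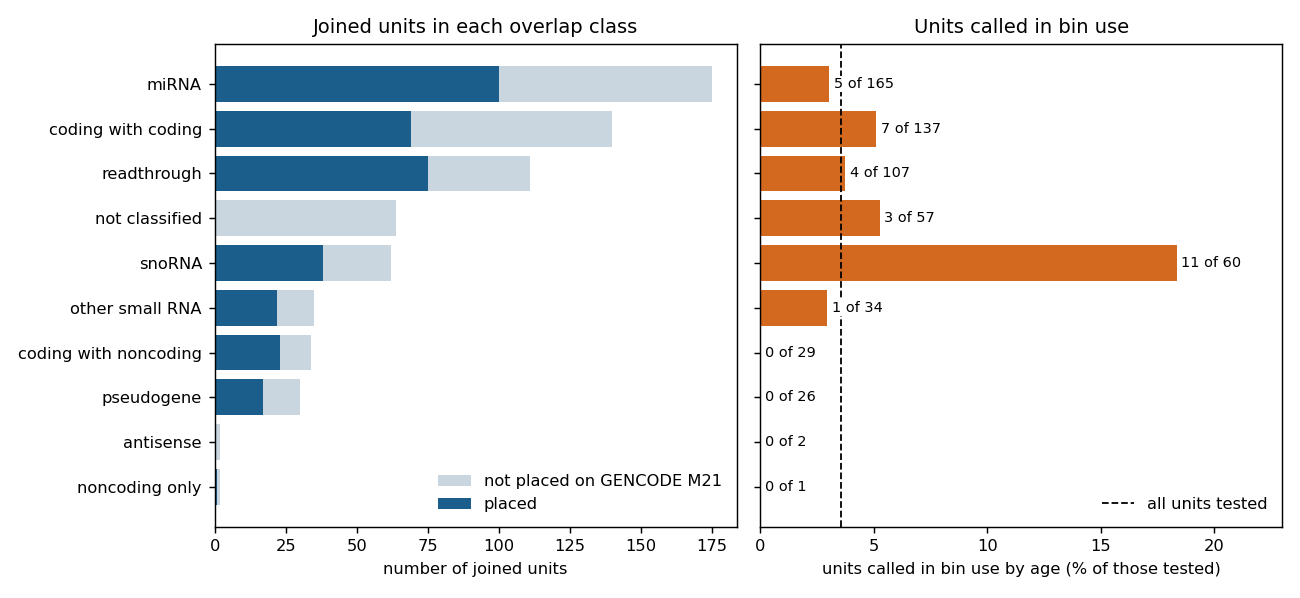
Left, number of joined units in each overlap class (dark, placed on GENCODE M21 by an equal number of bins; light, not placed). Right, percentage of tested units in each class with a called difference in bin use between 28 and 18 months, with the counts beside each bar and the percentage over all units as a dashed line; the snoRNA class, with 11 of 60 units, is the longest bar.

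The sequences of 6 snoRNAs are printed because their hosts carry the differences in bin use described further on or because their own bins reached the minimum count. They come from GENCODE M21 on GRCm38, 5′ to 3′. In the 5 box C/D snoRNAs the capitals mark TGATG, the core of box C, in the first 25 bases and CTGA, box D, in the last 25 bases. In Snora70, an H/ACA snoRNA, they mark ACA, 3 bases from the end.
Snord96a: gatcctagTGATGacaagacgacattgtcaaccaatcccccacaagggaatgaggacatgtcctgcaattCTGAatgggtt
Snord78: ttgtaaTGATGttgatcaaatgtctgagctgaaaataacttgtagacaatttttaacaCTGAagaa
Snord47: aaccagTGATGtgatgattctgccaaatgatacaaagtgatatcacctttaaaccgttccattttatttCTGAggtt
Snord15b: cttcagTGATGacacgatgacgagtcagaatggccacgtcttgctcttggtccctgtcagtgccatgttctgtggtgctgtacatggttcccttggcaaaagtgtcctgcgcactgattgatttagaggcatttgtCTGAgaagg
Snord42b: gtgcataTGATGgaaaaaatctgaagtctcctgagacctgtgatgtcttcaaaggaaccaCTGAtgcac
Snora70: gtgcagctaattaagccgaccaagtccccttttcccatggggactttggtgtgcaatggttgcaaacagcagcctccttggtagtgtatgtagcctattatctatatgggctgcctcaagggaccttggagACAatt
Snord96a lies at chr11:48802032-48802112 (+) in Rack1, Snord78 at chr1:161036984-161037049 (+) and Snord47 at chr1:161038082-161038158 (+) in Gas5. Snord15b lies at chr7:99479563-99479707 (-) in Rps3, Snord42b at chr11:78183056-78183124 (-) in Rpl23a and Snora70 at chrX:74272484-74272620 (+) in Rpl10. Both boxes were found in 86 of 98 M21 transcripts with a Snord symbol (87.8%) and in 24% of all 1507 snoRNA transcripts. The first 81 bases of 32851 RefSeq promoter windows held both in 0.283% on the gene's strand and 0.469% on the other, and ACA at that place was found in 35 of 42 Snora transcripts (83.3%).

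Mature miRNA sequences were matched by symbol to the RefSeq table (GRCm38.p6) for 142 of 157 miRNA symbols, which gave 229 mature sequences (seeds, bases 2 to 8, are in capitals below). Only 8 seeds occurred in more than 1 joined unit. The Mir17hg and Mcm7 hosts shared 2 of them, and those 5 sequences are shown because they link hosts on different chromosomes.
mmu-miR-17-5p: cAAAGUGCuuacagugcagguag
mmu-miR-20a-5p: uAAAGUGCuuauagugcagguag
mmu-miR-93-5p: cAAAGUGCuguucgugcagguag
mmu-miR-25-3p: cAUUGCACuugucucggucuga
mmu-miR-92a-3p: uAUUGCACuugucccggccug
The next 6 belong to miRNAs whose hosts or bins are described with their values.
mmu-miR-22-3p: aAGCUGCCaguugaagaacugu
mmu-miR-126a-3p: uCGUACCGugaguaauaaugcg
mmu-miR-675-5p: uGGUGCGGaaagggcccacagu
mmu-miR-8114: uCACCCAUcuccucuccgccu
mmu-miR-1902: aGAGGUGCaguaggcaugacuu
mmu-miR-7019-5p: aUCUGGGAggggcugucaggagu
The labels name total RNA and a standard Illumina procedure, with no selection of small RNA, and a count in a bin over a hairpin is a fragment of whatever RNA covers it, host transcript included, and not a measure of the mature miRNA.

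Sequence truly shared between genes was the smaller part of the joined units. The 345 units that could be placed on M21, because their genes lie on 1 strand and their number of bins equals that of the annotation, held 6405 of the bins. Of these, 1080 (16.9%) were covered by at least 2 genes and 5325 by 1 gene. The shared bins held 17.6% of the counts of placed units, lay in 196 units and had a median length of 91 bases, against 110 bases for bins of 1 gene. Equal bin numbers are no proof of a placement. Around the minimum mean of 10 counts, 132 bins lay just inside and 150 just outside (within 0.5 counts), and both sets had their highest median count in replicate 2 at 28 months (18.0 and 15.5).

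snoRNA hosts were led by genes of translation. By mean CPM the first 3 units were Eif4g2+Gm23262, Rack1 with Snord96a and Snord95, and Rps3 with Snord15b. Eif4g2, an initiation factor related to eIF4G, had 1420, 1214 and 1311 CPM at 28 months against 1408 CPM at 18 months. The 18-month value lay within the 28-month range. Rack1, a scaffold protein of the small ribosomal subunit, had 1108, 435 and 1060 CPM at 28 months against 562 CPM at 18 months, so that replicate 2 was below the 18-month library and the other 2 above it. Rps3, a protein of the same subunit, had 988, 455 and 895 CPM against 416 CPM, with the 18-month library the lowest of the 4. Gas5, a noncoding host of many snoRNAs, had 134, 137 and 167 CPM against 156 CPM.

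Over the list of 49 snoRNA hosts, 29 lay in joined units, 1 per unit, with a median log2 difference (28 minus 18 months) of 0.31 against 0.06 over all 15376 units tested. By the edgeR quasi-likelihood test 0 of the 29 were called, and 2 were at an unadjusted p under 0.05 (4.90% of all units). Those 2 were Hspa8, the constitutive heat shock chaperone and host of Snord14 copies, and Ppan, a factor of ribosome assembly. Hspa8 had 348, 453 and 342 CPM at 28 months against 743 CPM at 18 months, which is -0.96 ± 0.34 (SE) on the log2 scale. Ppan had 7.20, 4.61 and 9.49 CPM against 2.79 CPM.

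The snoRNA sequences themselves gathered few counts. Bin 10 of the Rack1 unit, which is the whole of Snord96a, had 16, 94 and 17 counts at 28 months against 20 at 18 months. The coding bins on either side of that intron, 8 and 12 in Snord96a+Rack1+Gm25296+Snord95, had 4529 to 12204 counts. Bin 37 of the Gas5 unit, which is Snord78, had 15, 79 and 12 counts against 16, and bins 59 and 60, which make up Snord47, had 8, 38 and 5 against 5 and 8, 36 and 6 against 9. Snora70, bin 24 of the Rpl10 unit, had 6, 43 and 4 counts against 9. Replicate 2 was the highest library in 9 of the 12 bins of the class that hold a snoRNA gene, and in 86 of 168 retained-intron bins (51.2%). It was the highest in 38% of coding bins. The Snord47 and Snora70 bins averaged under 10 counts in the other libraries and so reached the minimum mean only through replicate 2. The 9 of 12 is therefore a description. The same library had the highest fibroblast sum, and the part of that in these counts was not tested.

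**Figure D2:**
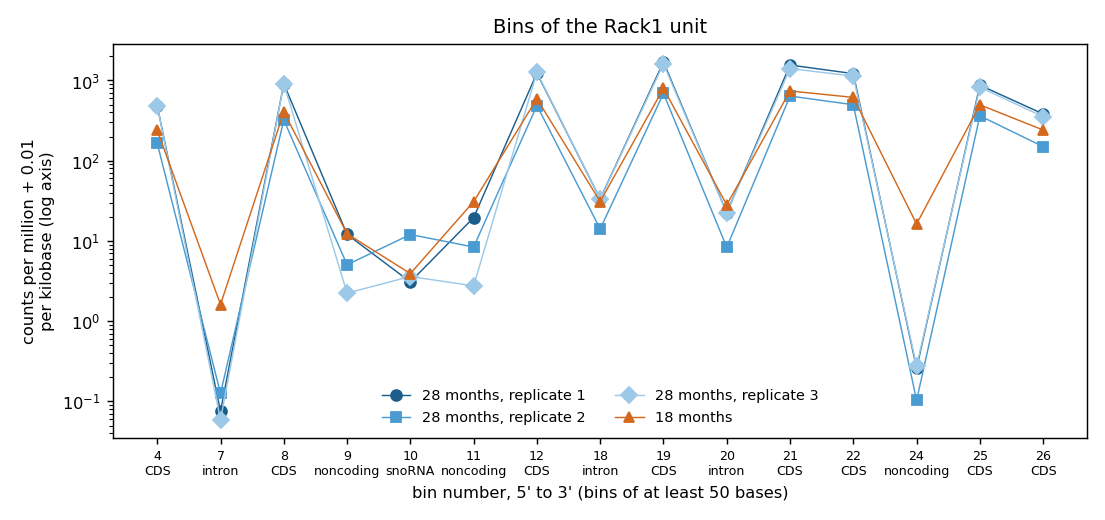
CPM per kilobase (log axis, with 0.01 CPM added) of bins of at least 50 bases in the Rack1 unit, in order from 5′ to 3′, 1 line per library; labels give the bin number and whether M21 has coding sequence (CDS), an intron kept in a noncoding transcript, another noncoding transcript or the snoRNA there. The 18-month library stands above the 3 libraries at 28 months in bins 7 and 24, where it had 76 and 102 counts against 0 to 8.

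Among miRNA hosts the highest was Pde4dip, which encodes myomegalin, joined with Mir7225 at 5829, 2118 and 6051 CPM at 28 months against 3593 CPM at 18 months. Eef1a1, the elongation factor that brings aminoacyl-tRNA to the ribosome, had 1337, 1098 and 1545 CPM against 1748 CPM, and Pink1, a kinase of mitochondrial quality control, had 1126, 344 and 1003 CPM against 743 CPM. The order of the libraries thus differed from host to host. H19, the imprinted noncoding host of Mir675, varied widely within the 28-month group, with 427, 79.6 and 375 CPM at 28 months against 231 CPM at 18 months. Mir22hg, host of Mir22 in a unit with Tlcd2, had 26.8, 16.1 and 20.6 CPM against 21.3 CPM. The host of the Mir17 cluster had at most 0.513 CPM in any library, and the Mcm7 unit, which carries the same 2 seeds in Mir93 and Mir25, had 8.85, 8.23 and 11.0 CPM against 6.74 CPM. Of 27 listed miRNA hosts 8 were in joined units, with a median log2 difference of 0.64 against 0.06 over all units. By the edgeR test 0 were called, and 2 of the 8 were at an unadjusted p under 0.05, as were 4.90% of all units.

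Bins over a small RNA gene could be placed in 53 units (67 bins), and 0 of the 67 differed in use by edgeR diffSpliceDGE at an adjusted p under 0.05, against 0.387% of all bins tested. At an unadjusted p under 0.05 there were also 0. Mir22, bin 5 of its unit, had 160, 99 and 112 counts at 28 months against 75 at 18 months. Mir8114 lies in the 5′ UTR (untranslated region) of Glul, which encodes glutamine synthetase, and its bin had 1457, 831 and 1811 counts against 437. The neighbouring bin 3 of Glul+Mir8114, of Glul alone, had 1632, 962 and 2083 counts against 449, so the hairpin bin and the exon beside it had the same order of libraries. The last member bin of Glul, 17, had 18558, 10479 and 21765 counts against 11941, with the 18-month library within the 28-month range. Mir1902 lies in the 3′ UTR of Hipk3, a protein kinase gene, and its bin had 598, 856 and 617 counts against 1144, with the 18-month library the highest.

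Within Pink1 the bin over Mir7019 did not separate the ages. It had 216, 2 and 0 counts at 28 months against 205 at 18 months, while the coding bins 5 and 8 of Pink1+Mir7019+Gm27646 beside it had 2317 to 9310 counts in every library. Replicate 1 at 28 months and the 18-month library therefore had over 200 counts there and the other 2 libraries at most 2. Its difference in use was not called.

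Readthrough genes left few bins of their own. In 63 placed units with 1 tagged readthrough gene, only 5 had a member bin covered by the readthrough gene alone. Those 5 bins held 0.0254, 0.0264 and 0.0311% of the counts of these units in replicates 1, 2 and 3 at 28 months and 0.0449% at 18 months. The bin with the most counts, 1 base long in the Psmd1 unit, had 67, 63 and 60 at 28 months against 112 at 18 months. None of the other bins had its highest count at 18 months, so the higher share at 18 months rests on that bin. Nearly all counts of readthrough units thus came from bins that also belong to a parent gene. In 31 of the 63 units 1 parent held over 90% of the member counts, and in 10 none held over 60%.

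In several readthrough units 1 neighbour held most of the counts, and in others the split was nearer to even. Trf, which encodes the iron carrier transferrin, held 96.2, 98.6 and 97.1% of its unit with Srprb at 28 months and 97.6% at 18 months. Ndufb8, a subunit of respiratory complex I, held 96.2, 94.9 and 95% of its unit with Sec31b against 95.3%. Nme2 held 71.4, 72.3 and 73.9% of its unit with Nme1, another nucleoside diphosphate kinase, against 73.7%. Rnasek held only 56.6, 52.4 and 59.1% of its unit with 0610010K14Rik against 56.25%. Each of these 18-month shares lay within the 28-month range. Cfb and C2, complement genes of the same locus, split their unit at 74.0, 71.0 and 72.4% for Cfb against 67.1%, with the 18-month library the lowest. Among 21 listed readthrough neighbours in 11 units, 0 were called by level or by bin use with edgeR, and 0 units were at an unadjusted p under 0.05 by level. Over all units tested the shares were 0.0% by level, 3.56% by bin use and 4.90% at that unadjusted p. With 11 units, 0 lies near these shares.

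Across 43 readthrough units with bins of both neighbours, the larger neighbour's share at 18 months lay away from the 28-month mean by a median of 2.70 percentage points. The 18-month share lay within the 28-month range in 23 units, below it in 8 and above it in 12. The difference was over 10 points in 4 units, singled out after their values were seen: those of Cox16, Zhx1, Syncrip and Hoxa3. The Hoxa3 unit rested on 1 bin of each gene, with 27 to 58 counts for Hoxa3 and 7 to 22 for Hoxa2. Cox16, an assembly factor of cytochrome c oxidase, held 68.1, 67.5 and 66.9% of the counts of the 2 neighbours at 28 months and 42.2% at 18 months. Synj2bp, a protein of the outer mitochondrial membrane, held the remainder. Bins of 3′ UTR spanned 3855 bases in Synj2bp and 1533 bases in Cox16. Over coding bins alone, Cox16 held 84.7, 83.4 and 84.5% against 73.2%, a smaller difference in the same direction. Over coding bins 5 units differed by over 10 points, and the differences of Zhx1 (14.1 points) and of Tex30 with Kdelc1 (11.5 points) were larger than that of Cox16 (-11.0 points, 18 months minus 28 months). The coding shares of Zhx1 and Tex30 also varied more at 28 months, with SDs of 8.85 and 6.68 points against 0.713 for Cox16 (n = 3). Over all bins the 18-month share of Tex30 lay within the 28-month range. The Cox16 unit was not called by bin use, and the part of the 3′ UTR in its difference beyond these values was not tested.

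**Figure D3:**
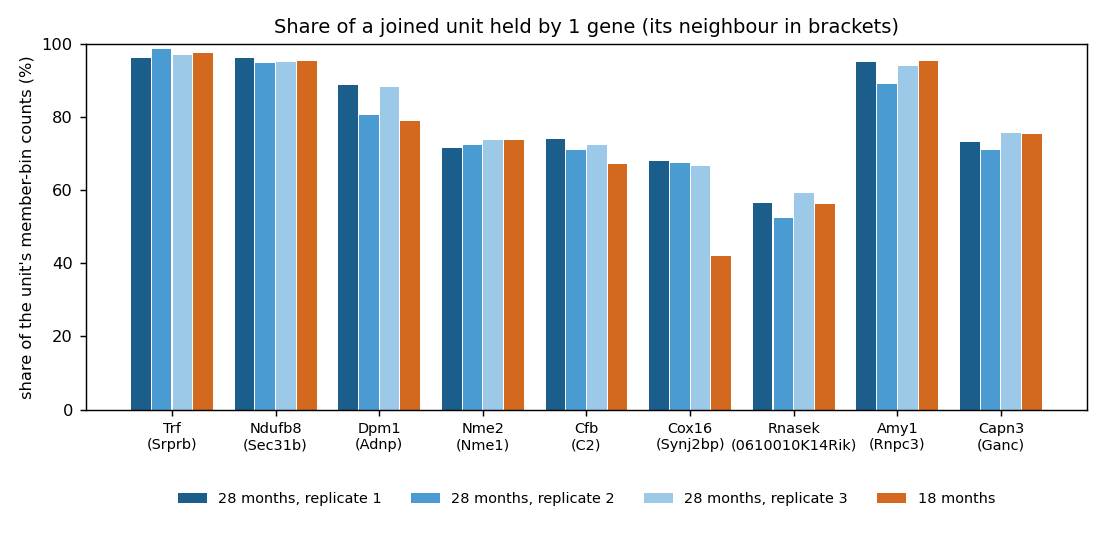
Share of a joined unit's member-bin counts held by 1 gene (name of its neighbour in brackets) in each library; for the first 7 genes, bins also covered by a readthrough gene are counted with their parent. Of the genes plotted, Cox16 has the widest gap, with 42.1% at 18 months and 66.7 to 68.1% at 28 months.

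Joined coding genes split their counts in different proportions. Of 69 placed pairs, 27 had 1 gene with over 90% of the counts, 28 had a gene with no member bin of its own, and shared bins held a median of 4.31%. Capn3, a muscle protease, held 73.3, 70.9 and 75.8% of its unit with Ganc against 75.4% at 18 months (95% exact binomial interval 74.7 to 76.2%). Amy1, an amylase gene, held 95.1, 89.1 and 94.1% of its unit with Rnpc3 against 95.3%. Plec, the cytoskeletal linker plectin, held 96.5, 93.3 and 96.7% of its unit with Parp10 against 97.9%. In all 3 pairs the lesser gene had its largest share in replicate 2. In Fntb+Churc1, by contrast, 4 shared bins held 52.5, 52.5 and 50.0% against 49.7%. Chkb+Cpt1b joins a choline kinase gene with the muscle form of carnitine palmitoyltransferase, which brings fatty acids into mitochondria, and had 317, 311 and 356 CPM against 317 CPM.

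With edgeR and all 4 libraries, no joined unit was called by age in summed counts. The edgeR quasi-likelihood test called 0 of 655 at a Benjamini-Hochberg adjusted p under 0.05, and 0 of all 15376 units (0.0%). At an unadjusted p under 0.05 there were 35 joined units, 17 higher and 18 lower at 28 months, or 5.3% against 4.90% of all units, and the DESeq2 Wald test called 1 joined unit, Gm28439+Gm10222, and 32 of all units (0.208%). The median log2 difference was 0.09 for joined units and 0.06 for all. The 18-month level lay below all 3 at 28 months in 178 joined units and above all 3 in 153, where all units gave 25.4% and 26.4%. Without replicate 2 at 28 months, the same test called 97 of 655 joined units (14.8%) and 11.7% of all units, so the count rests on that library. Without replicate 1 or replicate 3 it called 0 joined units, against 0.013% and 0.0065% of all units.

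In the miRNA class 13 of 175 units were at an unadjusted p under 0.05 by edgeR, 9 with higher and 4 with lower values at 28 months, and 0 were called. Of all 15376 units, 753 were at that p (4.90%), 390 higher and 363 lower, and 0 were called. The joined units with the smallest unadjusted p included the following. Sema4a, a semaphorin joined with Mir7011, had 10.4, 9.30 and 8.03 CPM at 28 months against 3.30 CPM at 18 months (log2 difference 1.49 ± 0.35, SE). Arrb2, an arrestin, had 16.5, 17.5 and 22.9 CPM against 7.86 CPM. Egfl7, a gene of endothelial cells and the host of Mir126a, had its unit at 43.8, 59.2 and 43.7 CPM against 24.6 CPM. In each the 18-month library lay below the other 3, and the adjusted p was 0.859 by edgeR. Srebf1, a regulator of lipid synthesis and host of Mir6922, had 179, 75.9 and 131 CPM against 42.2 CPM, and F630028O10Rik, host of Mir223, had 0.434, 0.554 and 0.812 CPM against 0.107 CPM. On the lower side, Gm28439+Gm10222 had 1.08, 0.697 and 1.52 CPM at 28 months against 11.5 CPM at 18 months (-3.39 ± 0.48, SE), and Mir7219+Fam210a had 71.7, 71.3 and 66.4 CPM against 130 CPM. With all 4 libraries none of these units passed the adjusted threshold by edgeR, and Gm28439+Gm10222 passed it by the DESeq2 Wald test, with the lower values at 28 months.

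The difference between the ages varied with where in the gene a bin lay. Over all joined bins the median log2 difference (28 minus 18 months) was 0.37, and it was 0.41 over all 157387 bins tested. In coding sequence (5072 bins) it was 0.47, and the 18-month CPM was below all 3 libraries at 28 months in 51.8% and above all 3 in 10.8% of bins. In 3′ UTRs (565 bins) it was -0.50, with 6.02% below and 60.7% above. Over all bins of the series the shares were 47.6% below and 15.6% above. The first member bin of a unit, counted from its 5′ end, had a median of 0.52 (552 bins) and the last one -0.45.

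The difference also varied with bin length. Placed bins of 26 to 100 bases had a median of 0.58 and those over 1000 bases -0.48. Within coding sequence the medians for the same lengths were 0.60 and -0.41, and within 3′ UTRs -0.20 and -0.67. Bins shared by at least 2 genes had a median of 0.49, with 51.9% below and 13.8% above, close to coding sequence as a whole. By the edgeR quasi-likelihood test 0 of 11318 joined bins and 0 of all bins (0.0%) passed at an adjusted p under 0.05, and the lowest adjusted value among joined bins was 0.0907. At an unadjusted p under 0.05 there were 1429 joined bins (12.6%), against 13.7% of all bins, and the DESeq2 Wald test called 87 (0.769%), against 0.770%. Without replicate 2 at 28 months 3004 joined bins were called (26.5%), against 27.5% of all bins. Without replicate 1 or replicate 3, edgeR called 14 (0.124%) and 19 (0.168%) joined bins, against 0.0921% and 0.102% of all bins.

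**Figure D4:**
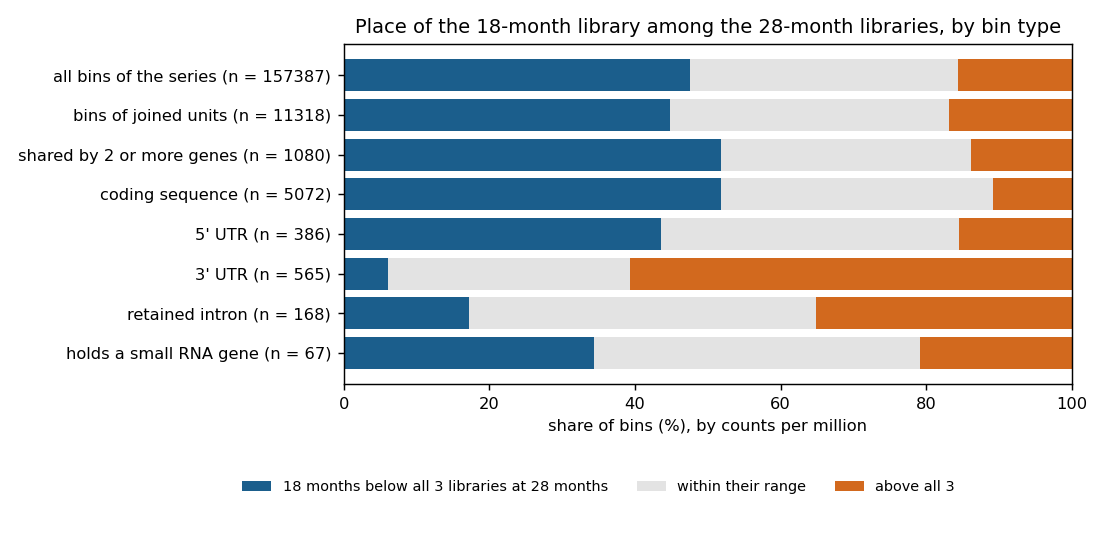
Percentage of bins in which the 18-month CPM lay below all 3 libraries at 28 months, within their range, or above all 3, for all tested bins of the series, for joined bins and for placed joined bins by type. The 3′ UTR bar is reversed against the others, with 6.02% below and 60.7% above.

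Bin use asks whether the balance between the bins of a unit differed by age, whatever the unit's level. In 31 of 618 joined units (5.02%) it did, by edgeR diffSpliceDGE with Simes p-values adjusted over all units, against 414 of 11622 units (3.56%). The snoRNA class had 11 of 60 (18.3%), the coding pairs 7 of 137, the miRNA class 5 of 165, readthrough units 4 of 107, unclassified units 3 of 57 and other small RNA units 1 of 34. The bins behind such calls include some that reached the minimum mean only through the 18-month library, among them bins of Eif4g2 and Rack1 given below. The differences between classes are therefore a description and not a test. By the gene-level F-test 177 joined units were called (28.6%) against 30.3% of all, with 20 of 60 in the snoRNA class (33.3%), and by limma voom with diffSplice 78 (12.6%) against 14.7%, with 15 of 60 (25%). Calls grew with abundance: at a mean of at least 10000 counts 19.9% of all units and 14 of 70 joined units were called, 6 of 10 in the snoRNA class, while under 500 counts 0.278% of all units were. Leaving out replicate 1, 2 or 3 at 28 months gave 14, 220 and 11 joined units (2.01, 30.6 and 1.48% of all units), with 6, 19 and 4 in the snoRNA class.

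Single bins called in use numbered 70 of 11281 joined bins (0.621%), 32 with a larger share of their unit at 28 months and 38 with a smaller one. Over all bins of the series 0.218% were called in the first direction and 0.169% in the second. Of the 27 smaller ones that could be placed, 19 were retained-intron bins, which M21 has only in noncoding transcripts that keep an intron. Of 168 retained-intron bins in joined units 11.9% were called. The 17 larger ones that could be placed were 9 coding bins, 7 bins of 5′ UTR and 1 retained-intron bin. In 28 of the 38 smaller bins every 28-month library had at most 25 counts, and in 26 of the 38 the 28-month libraries alone averaged under the minimum of 10. Those 26 entered only through their high count at 18 months, so their number is a description. Leaving out replicate 1, 2 or 3 gave 33, 869 and 25 called bins (0.218, 6.94 and 0.154% of all bins), and 13, 35 and 10 smaller retained-intron bins.

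The sequences of 3 smaller bins are shown because they lie against a splice site. They were read from M21 transcripts on GRCm38, and the capitals mark GT at the start of an intron after an annotated exon end, or AG before an annotated exon start.
Eif4g2 bin 17: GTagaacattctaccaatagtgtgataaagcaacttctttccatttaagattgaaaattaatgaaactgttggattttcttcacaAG
Rack1 bin 24: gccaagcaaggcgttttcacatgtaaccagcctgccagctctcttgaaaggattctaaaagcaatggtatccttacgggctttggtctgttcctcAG
Amy1 bin 8: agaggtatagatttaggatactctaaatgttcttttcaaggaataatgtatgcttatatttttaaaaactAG
Bin 17 of Eif4g2 (chr7:111074939-111075025, -) runs from 1 splice site to the next, a whole short intron of 87 bases. Bins 24 of Rack1 (chr11:48805448-48805544, +, 97 bases) and 8 of Amy1 (chr3:113561947-113562018, -, 72 bases) end at the start of an annotated exon.

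Counts in these intron-side bins were close to 0 at 28 months. Eif4g2 bin 17 had 8, 6 and 5 counts at 28 months against 346 at 18 months, or 0.00661 ± 0.00170% of the unit's counts (SD, n = 3) against 0.377% (95% exact binomial interval 0.339 to 0.419%). This bin, like bin 13 and the 2 of Rack1 that follow, reached the minimum mean only through the 18-month library, so no p is given for it. Bin 13 of the same gene had 3, 12 and 4 counts against 162. In both bins the 18-month library lay far above the other 3, while the unit's summed level at 18 months lay within the 28-month range. Rack1 bin 24 had 1, 0 and 1 counts against 102, and Rack1 bin 7, a retained intron of 730 bases, 3, 8 and 2 against 76.

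Other snoRNA hosts also had bins with a smaller share at 28 months. Ncl, which encodes the nucleolar protein nucleolin and hosts Snora75, had 1, 2 and 3 counts against 86 in bin 17, 1, 5 and 2 against 65 in bin 12 and 0, 3 and 1 against 44 in bin 19, all retained introns. Rps3 bin 16, which could not be placed, had 3, 11 and 2 counts against 411, and Eif4a2 bin 22, also not placed, 3, 10 and 0 against 95. These bins of Ncl, Rps3 and Eif4a2 each averaged under 10 counts at 28 months. They reached the minimum mean only through the younger library, so their smaller shares are a description. Rps20 bin 10, a retained intron of 192 bases in a gene of the small ribosomal subunit, had 76, 108 and 6 counts against 398. Its replicate 3 was far below the other 2 libraries at 28 months.

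So did genes outside the snoRNA class. Trf bin 39, a retained intron of 447 bases, had 0, 8 and 2 counts at 28 months against 186 at 18 months, and bin 21 of Ctsd+Ifitm10, a unit of the lysosomal protease cathepsin D that could not be placed, had 1, 8 and 0 against 118. Nrd1, which encodes the metalloprotease nardilysin and hosts Mir761, had 1, 6 and 0 counts against 80 in bin 44. Amy1 bin 8 had 0, 12 and 10 counts against 106, and Churc1 bin 6, a retained intron of 4770 bases, 0, 7 and 3 against 53. In each of these the 18-month count was above all 3 others, which follows from their choice. Each also averaged under 10 counts at 28 months and so reached the minimum mean only through the 18-month library.

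The retained-intron bins as a whole were less uniform. The 168 retained-intron bins together had 85.3, 118 and 82.9 CPM at 28 months against 150 CPM at 18 months, and their median log2 difference was 0.16. The 18-month CPM was above all 3 at 28 months in 59 of them and below all 3 in 29. In Rack1 itself the retained-intron bin 18 of Snord96a+Rack1+Gm25296+Snord95 had 374, 230 and 336 counts against 338, and bin 20 had 535, 290 and 483 against 655. As shares of the unit these were 0.505, 0.542 and 0.525% against 0.925% for bin 18, and 0.723, 0.683 and 0.755% against 1.79% for bin 20. Both shares were thus highest at 18 months, with far more counts at 28 months than in bins 7 and 24, and neither bin was called. In Egfl7, bin 38 of Fam69b+Egfl7+Gm20532+Mir126a, a retained intron, had 9, 230 and 16 counts against 9, so that replicate 2 was the high library.

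**Figure D5:**
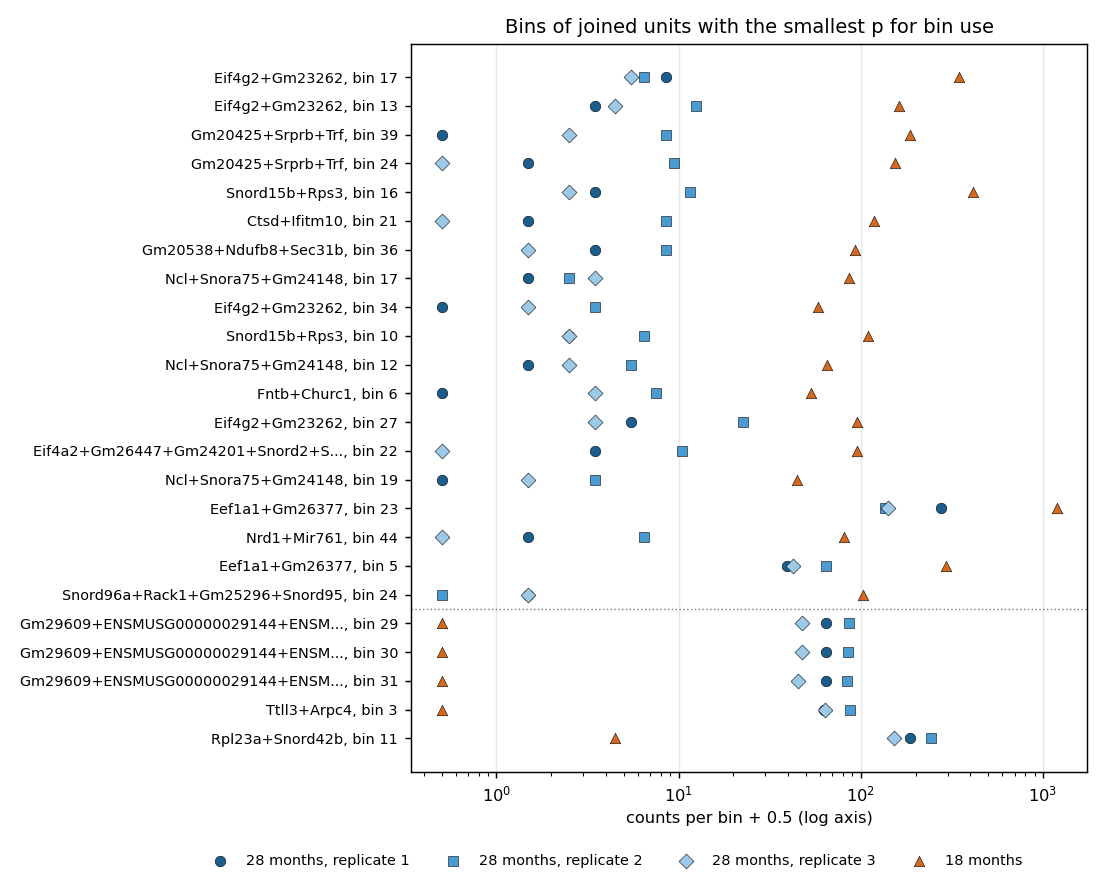
Counts per library (0.5 added, log axis) in the 24 bins of joined units with the smallest p for bin use; above the dotted line are 19 bins with a smaller share of their unit at 28 months, below it 5 with a larger share. In all 24 the 18-month library lies outside the range of the 3 libraries at 28 months, which follows from their choice.

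Of the 32 bins with a larger share at 28 months, 7 were the first member bin of their unit, counted from the 5′ end, as against 0 of the 38 smaller ones, and 14 had 0 counts at 18 months. First bins were known only in units whose genes all lie on 1 strand in M21, with 552 first bins beside 9355 between first and last. As a whole these first bins had a median log2 difference of 0.52 and the bins between 0.41, so the 7 are a description. Eef1a1 bin 24, a 5′ UTR bin of 86 bases and the first of its unit, had 2406, 3228 and 2693 counts at 28 months against 317 at 18 months, or 2.86 ± 0.161% of the unit (SD, n = 3) against 0.278%, with an adjusted p of 0.00048 by edgeR diffSpliceDGE. The next bin of the same 5′ UTR annotation, 23, went the other way, with 275, 136 and 141 counts against 1190. Within this 1 unit, then, neighbouring bins differed in opposite directions.

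Ribosomal protein hosts of snoRNAs had similar bins. Rpl13a, which hosts Snord32a, Snord33 and Snord34, had 1942, 918 and 1664 counts against 13 in bin 33 and 583, 235 and 476 against 0 in bin 34. The share of bin 34 was at least 46.2-fold higher at 28 months, taking 3 counts as the limit of the 18-month library. Rpl23a bin 11, a coding bin of 66 bases, had 186, 242 and 151 counts against 4, and Rps3 bin 19 had 689, 430 and 523 against 18. Eif4a2, an RNA helicase of translation initiation, had 315, 543 and 324 counts against 27 in bin 10. In these hosts all 3 libraries at 28 months were high, replicate 2 included.

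Fewer counts stood behind the rest. Med24, a Mediator subunit, had 61, 80 and 41 counts against 0 in bin 53, a 5′ UTR bin of 23 bases, and 1 bin of Ttll3+Arpc4, which includes a subunit of the actin-nucleating Arp2/3 complex, had 62, 87 and 63 against 0. Ddx39b bin 3, in the 5′ UTR of an RNA helicase of messenger RNA export, had 133, 181 and 116 counts against 13. Casc3, part of the exon junction complex, had 3 called bins with 7 to 31 counts at 28 months against 0 at 18 months. Sirt7, a deacetylase gene joined with Mafg and Mir6936, had 2 called bins, 37, 69 and 40 against 6 and 14, 24 and 19 against 0. A count of 0 here allows up to 3 counts in the 18-month library, and bins at 0 there reached the minimum mean only through the 28-month libraries.

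Calls among shared bins were too few to set them apart from bins in general. Of 1078 shared bins tested, 2 were called (0.186%, against 0.387% of all bins), both with a larger share at 28 months: bin 51 of the Trf unit, shared with the readthrough gene Gm20425, had 486, 1101 and 563 counts against 87, and bin 13 of the Sys1 unit had 153, 92 and 151 against 17.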

How the data were processed

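RNA-seq libraries of thigh muscle from male mice (3 at 28 months, 1 at 18 months) were deposited by the authors as 1 table each, holding raw counts by exonic bin that were not normalized. Per the submitters' processing notes, bcl2fastq 1.8.3, TopHat2 2.0.4 and GRCm38 were used. The counter, annotation release and strand setting are not given in the sources used here. Unit names and the 5 special entries (3.36 to 5.20% of entries, left out) have the form that the script supplied with DEXSeq writes. That script counts a fragment once in every bin it overlaps. Without a stated strand setting, reads of antisense neighbours cannot be told apart.

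Units (summed bins), bins and bin use were fitted over the whole table with edgeR 4.0.16 (quasi-likelihood; diffSpliceDGE with Simes p) after TMM scaling, at a mean of at least 10 counts, with Benjamini-Hochberg adjustment over all features. The fits had 2 residual degrees of freedom, all from 28 months. CPM used TMM-scaled library sizes, and a share is the percentage of a unit's member-bin counts. Intervals and limits (3 counts for 0) cover counting error only. Bins were placed by equal bin number on GENCODE M21. The scripts recovered known changes in simulated data (200 changed units or bins). Those changes were large and set in features well above the minimum count, with a common dispersion and bins drawn independently. Smaller changes, bins near the minimum count and fragments counted in several bins were not simulated.

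Named units were the 3 most abundant per class, the 6 with the smallest p by age in each direction, the 10 with the smallest p for bin use, leading bins and listed hosts and neighbours, and not all are given. Glul, Srebf1, Mir1902, Cox16 and some further pairs and bins were chosen after their values were seen. Members and lists were chosen with earlier results of these data known. Alternatives were other scaling, count minimums, DESeq2 1.42.0, limma 3.58.1, the F-test and leaving out each 28-month library. R was 4.3.3 and Python 3.11.15.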

Additional observations from a re-analysis of the deposited data

How the results depend on the processing

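No paired analysis was possible because the 18-month group is 1 library, so the groups share fewer than 2 replicate numbers. No group had 4 or more libraries, so no library could be tested as an outlier. With 2 residual degrees of freedom the spread rests on 3 libraries, and leaving out replicate 2 takes it from replicates 1 and 3 alone. All 70 bins called in use kept their direction in every fit that included them, among DESeq2 size factors, a mean of at least 50 counts (25 fitted) and each left-out library. The same 18-month library is in each of these fits. Its CPM lay outside the 28-month range in all 38 smaller and all 32 larger bins. The kept directions therefore follow largely from how the bins were called and are no independent support. Of the 31 joined units called in use, 14 stayed called without replicate 1, 31 without replicate 2, 10 without replicate 3, 28 by the F-test and 23 by limma. DESeq2 size factors in the edgeR fit changed no count, and the median unit difference moved by less than the median standard error. The cause of the following moves was not tested.

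By the DESeq2 Wald test 32 of all units and 1 joined unit, and 1212 of all bins and 87 joined bins, were called, against 0 by edgeR. With no count filter edgeR called 449 of all bins and 45 joined bins. At a mean of at least 50 counts, bin use was called in 188 of all units, 14 joined units, 6 of the snoRNA class, 25 joined bins and 2 smaller retained-intron bins, with fewer bins tested. limma voom called 1713 of all units and 78 joined units in use, and the F-test 3519, 177 and 20 of the snoRNA class. Leaving out 1 library gave 1 to 1806 of all units and 0 to 97 joined units by level, and 145 to 43324 of all bins and 14 to 3004 joined bins. For bin use it gave 172 to 3552 of all units, 11 to 220 joined units, 4 to 19 of the snoRNA class, 25 to 869 joined bins and 10 to 35 smaller retained-intron bins. The highest value came without replicate 2 each time. The counts of the snoRNA class, of single bins and of retained-intron bins were added to the alternatives after the data were seen.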
